A study of Mus musculus with 4 samples.

Results

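Dusp1, Dusp2, Dusp4, Dusp5, Dusp6, Dusp10 and Dusp11, 7 genes of the dual-specificity phosphatase family, were followed in regulatory T (Treg) cells of wild-type and Nsd2 knockout mice. They were chosen by name, with earlier results of these data known. They are the rows of the expression tables that carry these symbols, 7 of 14196 named genes. Each had 1 transcript row, so no choice between transcripts was needed. Treg cells hold immune responses in check and depend on the transcription factor Foxp3, and Nsd2 is a methyltransferase of lysine 36 of histone H3. RNA-seq had been run on sorted splenic Treg cells of strain C57BL/6. The groups were wild type (WT, 2 libraries) and a knockout of Nsd2 restricted to Treg cells (cKO, 2 libraries). Each library held RNA combined from at least 3 mice, so replicates here are pools and p-values measure the spread between pools, which may be partly technical. Not given in the sources used here were the Cre driver, the deleted exons, and the age and sex of the mice.

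Mitogen-activated protein (MAP) kinases of the ERK, p38 and JNK types carry signals from receptors, the T cell receptor among them, to the nucleus. They are switched on by phosphorylation of a threonine and a tyrosine, and the MAP kinase phosphatases switch them off by removing both phosphates. Several of these phosphatases are themselves induced by MAP kinase signalling and so act in negative feedback. Dusp1, Dusp2, Dusp4 and Dusp5 are inducible nuclear enzymes, Dusp6 is a cytoplasmic enzyme that prefers ERK, and Dusp10 prefers p38 and JNK. Dusp11 is related in sequence but acts on the 5′ phosphates of RNA, so the name MAP kinase phosphatase fits the other six and not Dusp11. Transcript levels carry no information on phosphatase activity or on the phosphorylation of the kinases.

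The 250 bases before the transcript start are shown for Dusp1 and Dusp6, which lay lower in both cKO libraries, for Dusp5, which lay higher, and for Dusp2, the most abundant of the genes. The table of RefSeq promoters (GRCm38.p6) held 6 of the 7 genes, all but Dusp4. Capitals mark matches on either strand to the cyclic AMP response element (CRE, TGACGTCA), its core TGACG, the AP-1 site TGANTCA and the CArG box bound by serum response factor. Each sequence is written 5′ to 3′ along the gene.
Dusp1 (chr17:26508473-26508722, minus strand): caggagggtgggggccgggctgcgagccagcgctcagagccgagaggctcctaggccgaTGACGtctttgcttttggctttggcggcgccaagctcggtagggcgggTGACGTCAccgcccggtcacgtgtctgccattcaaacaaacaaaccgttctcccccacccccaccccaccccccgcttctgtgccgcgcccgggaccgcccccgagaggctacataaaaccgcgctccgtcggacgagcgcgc
Dusp2 (chr2:127335909-127336158, plus strand): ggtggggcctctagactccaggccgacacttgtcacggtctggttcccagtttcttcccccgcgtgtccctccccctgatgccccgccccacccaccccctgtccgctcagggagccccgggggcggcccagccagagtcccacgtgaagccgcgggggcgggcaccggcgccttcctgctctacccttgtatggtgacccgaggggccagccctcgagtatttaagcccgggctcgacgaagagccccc
Dusp5 (chr19:53528895-53529144, plus strand): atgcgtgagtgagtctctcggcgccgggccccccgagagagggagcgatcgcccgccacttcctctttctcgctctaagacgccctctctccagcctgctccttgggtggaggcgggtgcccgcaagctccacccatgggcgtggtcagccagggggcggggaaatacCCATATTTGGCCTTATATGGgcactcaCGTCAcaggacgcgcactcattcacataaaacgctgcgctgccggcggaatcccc
Dusp6 (chr10:99262981-99263230, plus strand): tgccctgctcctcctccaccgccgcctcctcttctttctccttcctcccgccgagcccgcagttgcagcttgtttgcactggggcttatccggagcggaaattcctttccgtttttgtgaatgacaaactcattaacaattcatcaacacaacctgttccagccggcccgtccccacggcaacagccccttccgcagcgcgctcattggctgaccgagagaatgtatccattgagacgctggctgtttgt

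The Dusp1 window held 1 full CRE, from 143 to 136 bases before the start, and a further core from 191 to 187 bases before it. The full CRE contains a core on each strand, so these matches overlap. A full CRE was found in 1.55% of 32851 windows of the same length, and a core in 17.8%. In the Dusp5 window there were 2 adjacent CArG boxes, from 82 to 73 and from 72 to 63 bases before the start, and 1 CRE core. A CArG box was found in 1.47% of all windows. None of the marked motifs was found in the Dusp2, Dusp6 and Dusp10 windows, and the Dusp11 window held 1 CRE core. The Dusp11 window (chromosome 6, 85961668 to 85961917, minus strand) lies partly inside the span given for the gene below, which ends at 85961732. Its core lies inside that span. An AP-1 site, found in 6.75% of all windows, was in none of the 6. Further motifs were searched for and are not marked. The E-box CACGTG (6.02% of all windows) was in the Dusp1 and Dusp2 windows. The GC box GGGCGG (32.7%) was in those of Dusp1, Dusp2, Dusp5 and Dusp10. The ETS core CCGGAAGT and TATAAA were in none of the 6. A match describes letters in this window and is not evidence that a factor binds there.

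Levels are given as RPKM, reads scaled to transcript length and to library size, which can be compared between genes. Dusp2 was the most abundant of the genes, at a mean of 97.2 RPKM over the 4 libraries, followed by Dusp1 at 69.6 RPKM. In each library at least 91.0% of the 10691 genes tested, those averaging at least 1 RPKM, were at or below the level of either gene. Dusp11 (mean 33.7 RPKM), Dusp5 (31.2 RPKM) and Dusp4 (23.6 RPKM) formed a middle group, and Dusp10 (11.5 RPKM) and Dusp6 (10.8 RPKM) were lowest. The order of Dusp2 and Dusp1 was not fixed, since Dusp1 was the higher in WT replicate 1 and Dusp2 in the other 3 libraries. The ranges of Dusp11 and Dusp5 overlapped, as did those of Dusp10 and Dusp6, whereas Dusp1 and Dusp11, Dusp5 and Dusp4, and Dusp4 and Dusp10 were separate in all 4 libraries. Dusp1 and Dusp2 together made up 57.5% to 65.4% of the summed RPKM of the 7 genes. At the depths recovered from the steps between low values, these levels rested on about 519 to 4609 reads per gene and library, with a counting error of at most 4.39%. The row for Dusp11 corresponds to a transcript of 6435 bases in GENCODE, against 1617 to 2796 bases for the others. Its level is uncertain to the extent that shorter forms are made.

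**Figure D1:**
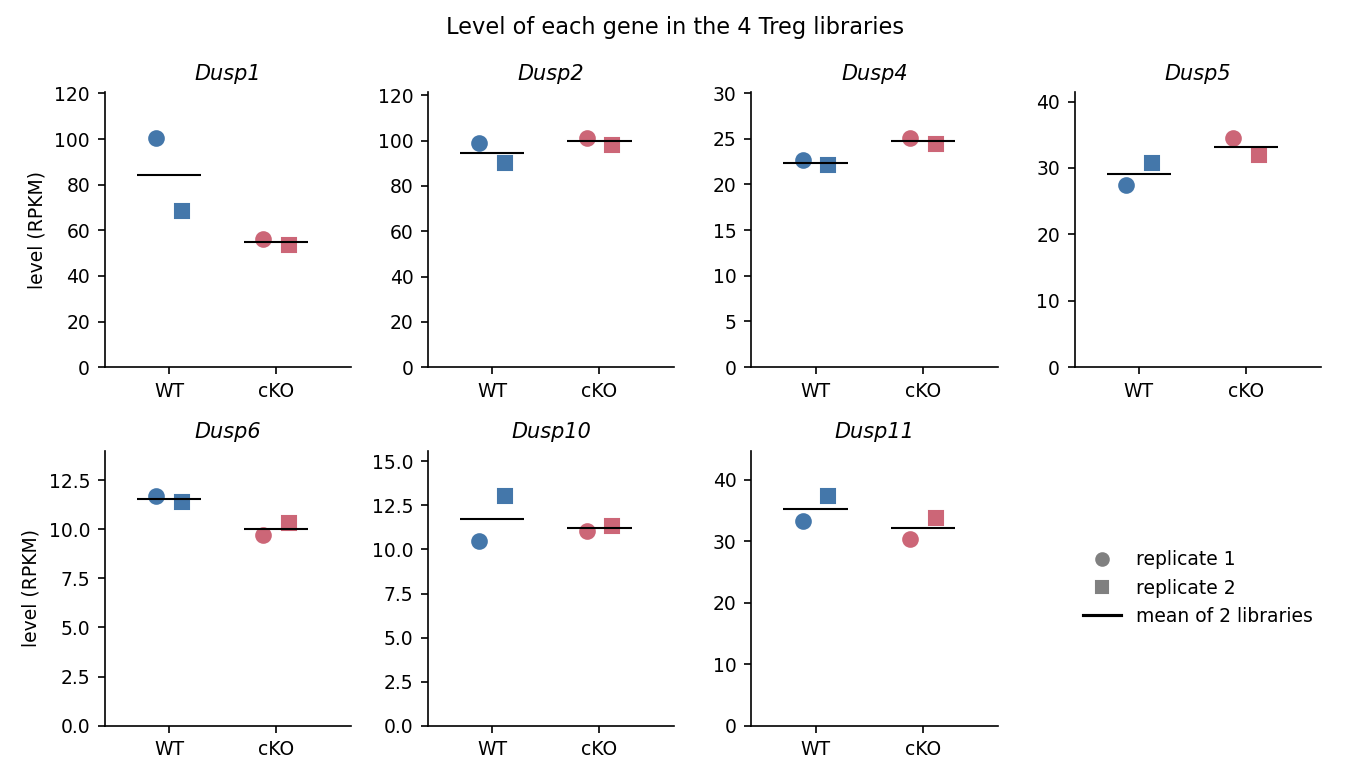
Level of each gene in RPKM (vertical axis, from 0, a separate scale for each gene) in the WT and cKO libraries. Circles are replicate 1, squares replicate 2, and bars the mean of 2 libraries. Dusp1 stood at 100.5 and 68.3 RPKM in WT, against 56.2 and 53.4 RPKM in cKO, and the levels of Dusp1, Dusp4, Dusp5 and Dusp6 did not overlap between genotypes.

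The comparison of cKO with WT asks which of these genes differ in splenic Treg cells of the Nsd2 knockout. The targeted gene was lower in both cKO libraries, with Nsd2 at 6.82 and 7.44 RPKM in WT, against 3.46 and 4.27 RPKM in cKO (limma's unadjusted p = 0.00305, adjusted p = 0.9998). Of the 7 phosphatase genes, 4 had levels that did not overlap between genotypes, Dusp1 and Dusp6 lower and Dusp4 and Dusp5 higher in cKO. Over all genes tested 26.4% were separated in this way, 9.06% lower and 17.4% higher. With limma on log2(RPKM + 1), 0 of the 7 had an adjusted p under 0.05, as was the case for all 10691 genes (0%). At an unadjusted p under 0.05 there was 1 of the 7, Dusp1, against 3.11% of all genes in either direction and 0.991% on the lower side. Of the 7 genes, 3 had a log2 fold change above 0, against 59.1% of all genes, with a median log2 fold change of -0.06, against 0.03 for all genes. With 2 libraries in each group an exact permutation test of a single gene cannot go below a two-sided p of 0.333.

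Dusp1 (chromosome 17, 26505591 to 26508472, NM_013642.3), the MAP kinase phosphatase MKP-1, was measured at 100.5 RPKM (WT replicate 1), 68.3 RPKM (WT replicate 2), 56.2 RPKM (cKO replicate 1) and 53.4 RPKM (cKO replicate 2). Both cKO libraries lay below both WT libraries, and they were close to each other while the WT libraries were far apart. The mean of 54.8 ± 1.96 RPKM in cKO was 1.54-fold below the WT mean of 84.4 ± 22.8 RPKM (SD, n = 2 each). The log2 fold change was -0.59 (standard error 0.20, 95% interval -1.09 to -0.09), and limma gave an unadjusted p = 0.0279 and adjusted p = 0.9998. Of all genes 0.543% had a log2 fold change this low or lower, and 0.758% were at least 1.5-fold lower without overlap. The size of the difference depended on WT replicate 1. Without it the log2 fold change was -0.31, and without WT replicate 2 it was -0.86. A fit with 1 WT library holds no spread between WT libraries, so no p-value is given for either. The WT libraries differed by 38.1% of their mean, far above the counting error of 2.16%, and 4.57% of all genes differed by as much or more between the WT libraries on the log2 scale.

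Dusp2 (chromosome 2, 127336159 to 127338377, NM_010090.2), known as PAC-1 and abundant in lymphoid cells, was measured at a level like that of Dusp1, without its separation by genotype. It stood at 99.0 and 90.3 RPKM in WT, against 101.3 and 98.2 RPKM in cKO. The ranges overlapped, with WT replicate 2 the lowest library. Its log2 fold change was 0.08 (standard error 0.12, 95% interval -0.23 to 0.38, unadjusted p = 0.561 and adjusted p = 0.9998 in limma), so the interval covers a change of either sign. It was 0.14 without WT replicate 1 and 0.01 without WT replicate 2.

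Dusp4 and Dusp5, the other nuclear enzymes, lay above WT in both cKO libraries as deposited, and neither passed the test. Dusp4 (chromosome 8, 34807610 to 34819894, NM_176933.4), which acts on ERK and JNK, stood at 22.7 and 22.1 RPKM in WT, against 25.1 and 24.4 RPKM in cKO. Replicates of Dusp4 were within 2.76% of each other in both genotypes, and the cKO mean was 1.11 times the WT mean. Counting error for Dusp4 was up to 2.94%, so this closeness is finer than counting can resolve and does not measure the spread. The log2 fold change of Dusp4 was 0.14 with a 95% interval of -0.15 to 0.42 (unadjusted p = 0.275 and adjusted p = 0.9998 in limma). For Dusp5 (chromosome 19, 53529145 to 53541809, NM_001085390.1), a phosphatase specific to ERK, the levels were 27.5 and 30.8 RPKM in WT, against 34.5 and 31.9 RPKM in cKO. The cKO libraries were the higher, but WT replicate 2 and cKO replicate 2 differed little, and with median-of-ratios scaling their order turned (31.3 against 31.1 RPKM). The log2 fold change of Dusp5 was 0.18 with a 95% interval of -0.13 to 0.50 (unadjusted p = 0.205 and adjusted p = 0.9998 in limma), and it was 0.11 without WT replicate 1. GENCODE lists an antisense gene that overlaps Dusp5, and whether reads were counted by strand is unknown here.

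Dusp6 (chromosome 10, 99263231 to 99267489, NM_026268.3), also called MKP-3, is the ERK phosphatase of the cytoplasm. It stood at 11.7 and 11.4 RPKM in WT, against 9.69 and 10.3 RPKM in cKO. Both cKO libraries were below both WT libraries, with means of 11.5 ± 0.186 and 10.01 ± 0.460 RPKM (SD, n = 2). The log2 fold change was -0.19 (standard error 0.12, 95% interval -0.49 to 0.12, unadjusted p = 0.178 and adjusted p = 0.9998 in limma). About 519 to 635 reads per library stood behind Dusp6, and its replicates differed by 0.03 in WT and 0.09 in cKO on the scale of log2(RPKM + 1), with a counting error of up to 4.39%.

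Dusp10 (chromosome 1, 184034381 to 184075636, NM_022019.5), also called MKP-5, stood at 10.5 and 13.0 RPKM in WT, against 11.0 and 11.4 RPKM in cKO. Both cKO libraries lay between the WT libraries, which were 21.5% of their mean apart. The log2 fold change of -0.06 (95% interval -0.42 to 0.31, limma's adjusted p = 0.9998) became 0.09 without WT replicate 2 and -0.20 without WT replicate 1. Dusp11 (chromosome 6, 85942268 to 85961732, NM_028099.4), the RNA phosphatase, stood at 33.2 and 37.3 RPKM in WT, against 30.4 and 33.8 RPKM in cKO. Replicate 2 was the higher in both genotypes and the ranges overlapped, but with median-of-ratios scaling both cKO libraries (30.3 and 32.9 RPKM) lay below both WT libraries (33.5 and 37.9 RPKM). Its log2 fold change was -0.13 (95% interval -0.46 to 0.20, limma's adjusted p = 0.9998), and leaving out a replicate moved it in each case. Omitting WT replicate 1 gave -0.21 and omitting WT replicate 2 gave -0.05, while omitting cKO replicate 1 gave -0.06 and omitting cKO replicate 2 gave -0.20. An antisense gene overlaps Dusp11 in GENCODE, so its value carries the same limit on strand as that of Dusp5.

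**Figure D2:**
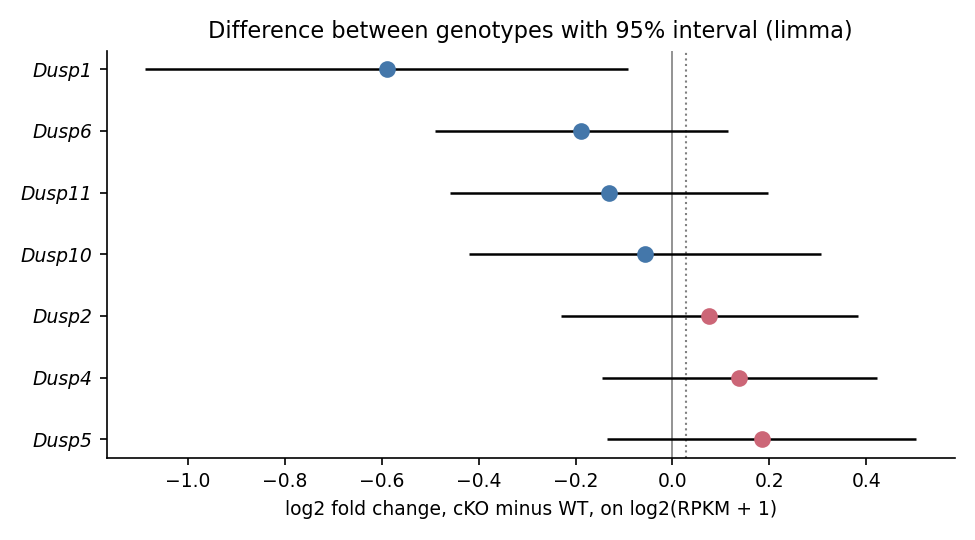
Log2 fold change of cKO minus WT on log2(RPKM + 1) (horizontal axis) for each gene, with its 95% interval from limma over 4 libraries. The solid line marks 0 and the dotted line the median of all genes, 0.03. The interval of Dusp1 runs from -1.09 to -0.09, and those of the other 6 genes include 0.

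Ratios between genes of 1 library do not depend on how the libraries are scaled. The ratios described here were chosen after the values were seen and have no test. The ratio of Dusp1 to Dusp2 was 1.02 and 0.757 in WT replicates 1 and 2 and 0.555 and 0.544 in cKO replicates 1 and 2. Dusp1 was thus near the level of Dusp2 in WT replicate 1, at 0.757 of it in WT replicate 2, and at little more than 0.5 of it in both cKO libraries. The WT ratios differed from each other by more than WT replicate 2 differed from either cKO library. The ratio of Dusp6 to Dusp4, a cytoplasmic against a nuclear phosphatase of ERK, was 0.515 in both WT libraries and 0.386 and 0.424 in the cKO libraries. Counting error was up to 4.39% for Dusp6 and 2.94% for Dusp4. The match of the WT ratios is thus finer than counting can resolve and does not measure their spread. The ratio of Dusp4 to Dusp5 overlapped between genotypes, at 0.824 and 0.719 in WT and 0.727 and 0.765 in cKO.

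The summed level of all 7 genes was 305 and 273 RPKM in WT, against 268 and 263 RPKM in cKO. Without Dusp1 the sum was 204.5 and 204.9 RPKM in WT, against 212 and 210.0 RPKM in cKO, so without Dusp1 the total was not lower in cKO. This is a net balance, since the means of Dusp6, Dusp10 and Dusp11 were lower in cKO and those of Dusp2, Dusp4 and Dusp5 higher. The small excess of the other 6 genes in cKO, 6.29 RPKM, was 0.866 RPKM with median-of-ratios scaling, where the genotypes overlapped. Dusp1 accounted for 33.0% and 25.0% of the 7-gene sum in WT and for 20.9% and 20.3% in cKO.

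**Figure D3:**
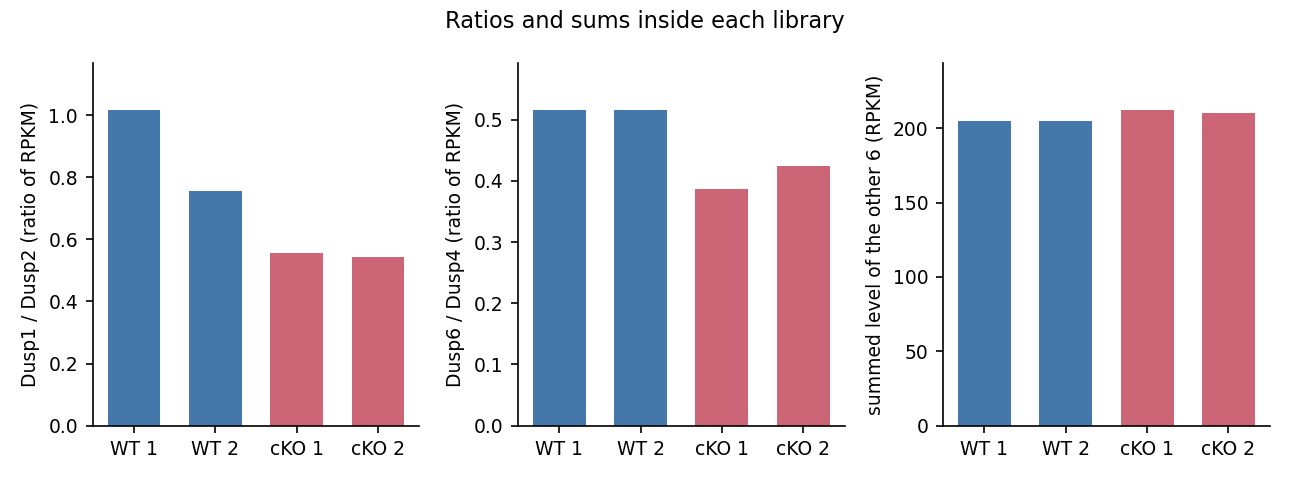
Ratio of Dusp1 to Dusp2, ratio of Dusp6 to Dusp4, and summed RPKM of the 6 genes other than Dusp1 (vertical axes, from 0), 1 bar per library. The ratio of Dusp1 to Dusp2 is 1.02 and 0.757 in WT and 0.555 and 0.544 in cKO, while the sum of the other 6 genes lies between 204.5 and 212 RPKM in every library.

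Dusp1 had the widest range of the 7 genes, and the genes with the most similar pattern were found by the root mean square difference of centred log2(RPKM + 1) over the 4 libraries, among 8366 genes averaging at least 4 RPKM. They were Mlxip (0.0844), a glucose-responsive transcription factor, Pik3ip1 (0.0945), an inhibitor of phosphoinositide 3-kinase, and Fkbp5 (0.0976), a co-chaperone of steroid receptors. Mlxip stood at 38.1 and 29.6 RPKM in WT, against 24.2 and 22.8 RPKM in cKO. Fkbp5 stood at 37.5 and 23.7 RPKM in WT, against 17.2 and 19.3 RPKM in cKO. As for Dusp1, WT replicate 1 was the highest library for both. Over 4 libraries such a likeness describes these libraries and nothing more.

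Of 4 further typical MAP kinase phosphatases 3 were in the tables used here, and 1 of these averaged at least 1 RPKM. This was Dusp7, a cytoplasmic ERK phosphatase, which stood at 23.9 and 21.6 RPKM in WT, against 22.6 and 20.7 RPKM in cKO. It was thus about as abundant as Dusp4, and its genotypes overlapped. Of 15 atypical phosphatases and relatives 9 were in the tables used here and 7 were tested. A log2 fold change above 0 was seen in 4 of the 7, against 59.1% of all genes. Dusp14, a phosphatase that restrains T cell receptor signalling, stood at 1.28 and 0.688 RPKM in WT, against 2.20 and 1.73 RPKM in cKO. Both cKO libraries of Dusp14 were the higher, with a log2 fold change of 0.59 (unadjusted p = 0.0266 and adjusted p = 0.9998 in limma) at a level near the filter. Among 9 tested phosphatases of other families that act on MAP kinases or upstream of them, 4 were above 0. In each direction 1 was separated, against 17.4% of all genes higher and 9.06% lower. Ptpn22, which dephosphorylates kinases close to the T cell receptor, stood at 53.5 and 67.0 RPKM in WT, against 41.0 and 50.8 RPKM in cKO. Ptpn7, a tyrosine phosphatase of ERK and p38 in blood cells, stood at 62.9 and 52.1 RPKM in WT, against 72.9 and 63.4 RPKM in cKO. Neither Ptpn22 nor Ptpn7 passed limma (unadjusted p = 0.0718 and 0.162, adjusted p = 0.9998 for both).

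The kinases that these phosphatases act on, and the genes around them, had log2 fold changes on both sides of 0. In the ERK cascade the log2 fold change was above 0 for 11 of 20 genes (median 0.05), with 3 genes separated higher, near the 17.4% of all genes, and 0 separated lower. Mapk3, which encodes ERK1, stood at 18.9 and 16.5 RPKM in WT, against 23.2 and 19.3 RPKM in cKO, and Ksr1, a scaffold of the cascade, at 13.8 and 10.3 RPKM in WT, against 15.9 and 14.6 RPKM in cKO. In the p38 cascade 5 of 11 genes tested were above 0 (median -0.03), against 59.1% of all genes, with 2 separated higher and 3 lower. In the JNK cascade 6 of 15 were above 0 (median -0.04), with 2 separated higher and 0 lower. Over all genes 17.4% were separated higher and 9.06% lower. The JNK scaffold Mapk8ip1 stood at 1.77 and 1.09 RPKM in WT, against 2.34 and 2.38 RPKM in cKO (limma's unadjusted p = 0.0393, adjusted p = 0.9998). Of the ERK5 and atypical MAP kinases 3 of 4 were above 0 (median 0.08), with 0 separated in either direction. Of the kinases activated by MAP kinases 4 of 10 were above 0 (median -0.02), with 2 separated higher and 0 lower. No gene of these 5 lists, 60 tested in all, had an adjusted p under 0.05 in limma. At an unadjusted p under 0.05 there was 1, against 3.11% of all genes.

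Medians lay below 0 for the feedback inhibitors, the transcription factors that MAP kinases act on, and the immediate early and stress genes. The last of these lists includes heat shock genes, and none of the lists measures MAP kinase signalling. Of 3 Sprouty and Spred feedback inhibitors of the ERK cascade that were tested, 1 was above 0 (median -0.11). Spry1 stood at 14.2 and 11.2 RPKM in WT, against 11.7 and 11.6 RPKM in cKO, with overlapping ranges. Of 13 transcription factors that MAP kinases act on, 5 were above 0 (median -0.10), with 1 separated higher and 3 lower, against 17.4% and 9.06% of all genes. Mef2a, a target of p38, stood at 9.60 and 10.4 RPKM in WT, against 7.29 and 8.74 RPKM in cKO. Of 24 immediate early and stress genes tested, 6 were above 0, against 59.1% of all genes, and 7 were separated lower, against 9.06% of all genes (median -0.14, against 0.03 for all genes). None passed limma over all genes, and 3 had an unadjusted p under 0.05 on the lower side, against 0.991% of all genes. These were Fosl2, an AP-1 subunit, and the heat shock genes Hspa8 and Hsph1.

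The library with the highest level differed among these 24 genes. It was WT replicate 1, as for Dusp1, for 6 of them (Egr1, Egr2, Egr3, Junb, Myc and Nr4a1), WT replicate 2 for 12 and cKO replicate 1 for 6. Egr1, an early response transcription factor, stood at 30.7 and 27.2 RPKM in WT, against 26.3 and 25.3 RPKM in cKO, so its order of libraries was that of Dusp1. Hsph1 stood at 40.1 and 104 RPKM in WT, against 32.9 and 23.3 RPKM in cKO, and Fosl2 at 1.60 and 3.52 RPKM in WT, against 1.17 and 0.826 RPKM in cKO. Hsph1 and Fosl2 were both highest in WT replicate 2, where Dusp1 was at 68.3 RPKM, against 100.5 RPKM in WT replicate 1. Genes named here by their highest library were chosen after their values were seen. The part of the immediate early and stress genes in the result for Dusp1 was not tested.

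**Figure D4:**
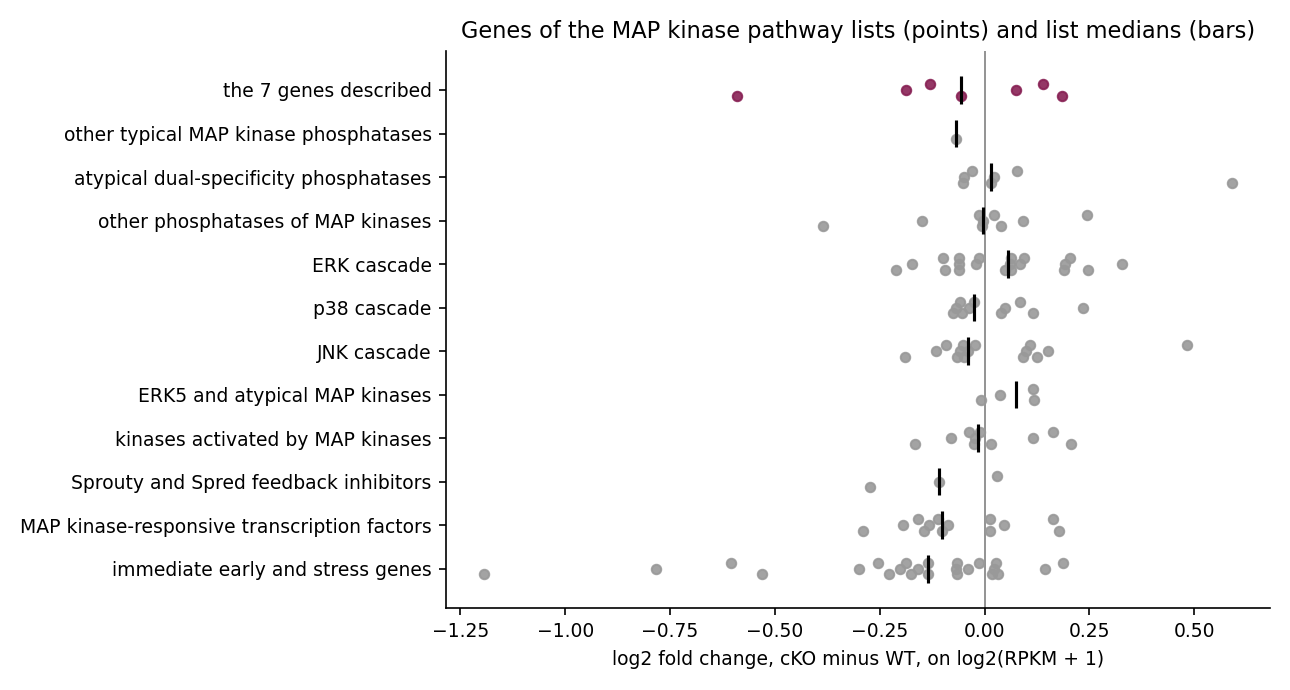
Log2 fold change of cKO minus WT on log2(RPKM + 1) (horizontal axis) for the tested genes of each list (points), with the list median (bar). The 7 genes described are in the top row, where Dusp1 stands apart at -0.59. The kinase cascades centre near 0 and the immediate early and stress genes have a median of -0.14.

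Markers of other cells were present. Foxp3 stood between 113 and 145 RPKM in the 4 libraries and Cd4 between 178 and 203 RPKM, as the label of Treg cells implies. Among markers of cytotoxic cells Cd8a was at most 0.394 RPKM, but Cd8b1 stood between 5.22 and 6.91 RPKM and Nkg7, a granule protein of cytotoxic cells, between 7.96 and 12.7 RPKM. The sum of 6 B cell markers, of 10 listed, was 7.12 to 8.75 RPKM in WT and 11.3 to 12.1 RPKM in cKO, so both cKO libraries were the higher. Myeloid markers stood out in a single cKO library. The sum of 10 of 13 myeloid and dendritic cell markers was 7.51 and 11.5 RPKM in WT, 22.8 RPKM in cKO replicate 1 and 7.0 RPKM in cKO replicate 2. The sum of 6 of 9 CD8 T and NK cell markers was 21.4 to 24.2 RPKM in WT and 22.2 to 23.5 RPKM in cKO. For 6 of 8 erythroid and platelet markers it was 25.4 and 12.2 RPKM in WT, against 43.8 and 7.90 RPKM in cKO. The erythroid sum was thus highest in cKO replicate 1 and lowest in cKO replicate 2. Of the 19291 deposited transcripts 0 were at 0 in every library. That no marker counted here was at 0 throughout is thus no sign of its presence in the cells. The part of other cells in the levels of the 7 genes was not tested, and in bulk RNA fewer cells of a type and less RNA per cell cannot be told apart. Depth was 19075000 to 21200000 reads per library.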

How the data were processed

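RNA-seq was measured in 2 WT and 2 cKO libraries of sorted splenic Treg cells, each from RNA of at least 3 mice, with reads of 50 bases per the labels' protocols. The authors deposited RPKM values for 19291 transcripts per library, with the unit read from the values. The submitters' processing notes name HISAT2, DESeq2 and mm10 without a role. Not given in the sources used here were the counting tool, its use of strand and any filter.

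Rows were named by accession (16720) or by the name in the file, with an NCBI RefSeq table of GRCm38.p6. Rows without a gene name (1169 rows, 10.9% of all RPKM) were left out. The transcript of highest mean stood for a gene, and the 10691 genes averaging at least 1 RPKM entered limma 3.58.1 (R 4.3.3, trend and robust) on log2(RPKM + 1), two-sided, with Benjamini-Hochberg adjustment at 0.05. This scale understates changes of low genes. Depth came from the steps between low values, with GENCODE M21 lengths. It was the depth at which a score of closeness to whole reads (a mean cosine) was highest. At that depth 63.7% to 69.9% of the values used lay within 0.1 of a whole read. By chance this would be 20.0%, but depth was chosen on the same values. Reads behind a gene are therefore approximate, and counting errors cover counting alone.

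The members and the 16 other gene lists were chosen with earlier results of these data known. Named genes were all members and, from each list, up to 4 genes of lowest p (2 from lists with few tested genes), given where they add to the description; Foxp3, Cd4, Cd8a, Cd8b1 and Nkg7 were named to check the label. The fit was tested on simulated data. Alternatives covered the replicate block, scaling, pseudocounts of 0.1 and 0.5, filters, transcript sums, moderation and each library left out. Figures were drawn with matplotlib 3.10.9.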

Additional observations from a re-analysis of the deposited data

How the results depend on the processing

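The count of members past the threshold stayed at 0 in all 12 alternatives. Of 84 log2 fold changes of members under these alternatives, 83 kept their direction, and 1 turned, Dusp10 without WT replicate 2 (0.087 against -0.06; it ran from -0.20 to 0.087 with 1 library left out). The count over all genes, 0 as reported, was 21 to 66 with 1 library left out, in fits that take a lone library to vary as the other group does. The cause was not tested. The log2 fold change of Dusp1 ran from -0.86 to -0.31, both ends from fits with 1 WT library left out. Its unadjusted p in limma was under 0.05 in each alternative that kept all 4 libraries. Its adjusted p among these was lowest with the replicate block, at 0.221. The labels do not say what a replicate number stands for. Deviations of same-numbered libraries from their group means had a correlation of 0.513 over the genes tested, a hint from the data and not from the design. With the replicate block 1 gene passed over all genes and 0 members, and 2 members had an unadjusted p under 0.05. These were Dusp1 (adjusted p = 0.221 in limma) and Dusp6 (unadjusted p = 0.0444, adjusted p = 0.314). The 3.11% of all genes under 0.05 belongs to the fit without the block. The share in the blocked fit is not given here, so the 2 members have no background to be read against. Median-of-ratios scaling moved the median of all genes from 0.03 to -0.01, and the count of members without overlap stayed at 4, with Dusp11 in place of Dusp5. The 26.4% of all genes separated belongs to the values as deposited. The share under scaling is not given here, so the scaled count has no background to be read against. This look at overlap under scaling, and the excess of the sum without Dusp1 (6.29 against 0.866 RPKM), were added after seeing the data. Transcripts with few reads limit the precision of lists with scarce genes.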
